A study of Mus musculus with 24 samples.

Results

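The transcript response of the liver to an obesogenic diet was examined in mice of the oleic lineage by setting the 8 arrays of the HFoleic group against the 9 arrays of the reference group, 17 of the 24 arrays of the series. The groups were chosen by the array titles alone, and no measured value entered the choice. All 17 animals were C57Bl6J males of the F3 generation, bred on a growing diet supplemented with high-oleic sunflower oil, which is the control fatty acid lineage. HFoleic mice were then fed a high-fat diet that was also rich in sucrose (HFD in the labels), whereas reference mice received a low-fat standard diet (STD). Livers were taken while the animals were fasting, and each mouse had 1 array. The remaining 7 arrays (HFepa: fish-oil lineage on the high-fat diet) entered the statistical model only to share the estimate of the spread, and 1 paragraph gives their values side by side.

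The fasted liver makes glucose from amino acids, disposes of their nitrogen as urea and burns fatty acids, under the control of glucagon, glucocorticoids and the nuclear receptor PPAR alpha. Feeding and insulin turn these programs down and turn on the SREBP transcription factors, which drive the synthesis of fatty acids and sterols. Hepatocytes also export large amounts of protein, and the endoplasmic reticulum (ER) adjusts its chaperones and its degradation machinery to that load through the unfolded protein response.

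Values are log2 signals of quantile-normalised arrays. A change is the mean of HFoleic minus that of the reference in log2 units, with its standard error (SE) and the limma p-value adjusted by Benjamini-Hochberg over all 32176 probes, and a gene, read from its brightest probe, was called when that p-value was under 0.05. The limma test called 2122 probes (6.59%), 1188 higher (3.69%) and 934 lower (2.9%) in HFoleic, and 6430 had an unadjusted p under 0.05. By gene, 1432 of 16968 symbols were called (8.44%), 809 higher (4.77%) and 623 lower (3.67%), and these percentages are the background against which the gene lists are read. Most changes were small, with a median absolute change of 0.39 among called genes and 934 of them (65.2%) under 0.5, while 47 rose and 38 fell by more than 1 log2 unit. Every HFoleic mouse lay beyond every reference mouse in 108 of the 16262 genes with a value on all 17 arrays (0.664%), 62 higher (0.381%) and 46 lower (0.283%), and 107 of these genes were called.

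On the 17 arrays 28804 to 34432 of 56605 probes were well above background and 0 spots were saturated. All 20 hepatocyte markers, such as Alb and Apoa1, were well above background on every array, and their mean per mouse lay within -0.06 to 0.05 of the reference mean. Single markers did move, since 1 of the 20 was called higher and 2 lower, namely Cps1 and Tat. Arrays were spread over 3 slides of 2 rows, and 1427 of the 1432 called genes (99.7%) changed in the same direction within each slide and 1432 in both rows. These genes were called on the same arrays, so the choice itself favours such agreement. It is not a test of an effect of slide or row. Some reference mice stood apart in genes of other cells. Relative to the reference mean, reference mouse 5 lay at 1.24 for extracellular matrix and stellate cell genes, 1.1 for cholangiocyte genes, 0.92 for adipocyte genes and 0.86 for cell cycle genes, reference mouse 4 at 1.44 for adipocyte genes, and reference mouse 3 at 1.71 for skeletal muscle genes. Without these 3 mice 1292 probes and 871 genes were called, 744 of them among the 1432. The part of admixed tissue in the results was not tested, and in a whole liver fewer cells of a type and less RNA per cell cannot be told apart. The mice also differed in clock genes, whose score (mean of Bmal1-phase genes minus mean of Per-phase genes) ran from -0.41 over a median of 0.33 to 0.95 in the reference and from -1.10 over -0.40 to 0.55 in HFoleic. With this score as a covariate 1013 probes and 686 genes were called. All 1432 genes kept their direction with it, 642 were still called, and the median ratio of the adjusted to the unadjusted change was 0.905. Here too direction was read on the arrays by which the genes had been called. The hour of killing is not given in the sources used here. Where a list count moved by more than 1.5 times under either of these alternatives, both values are given.

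**Figure D1:**
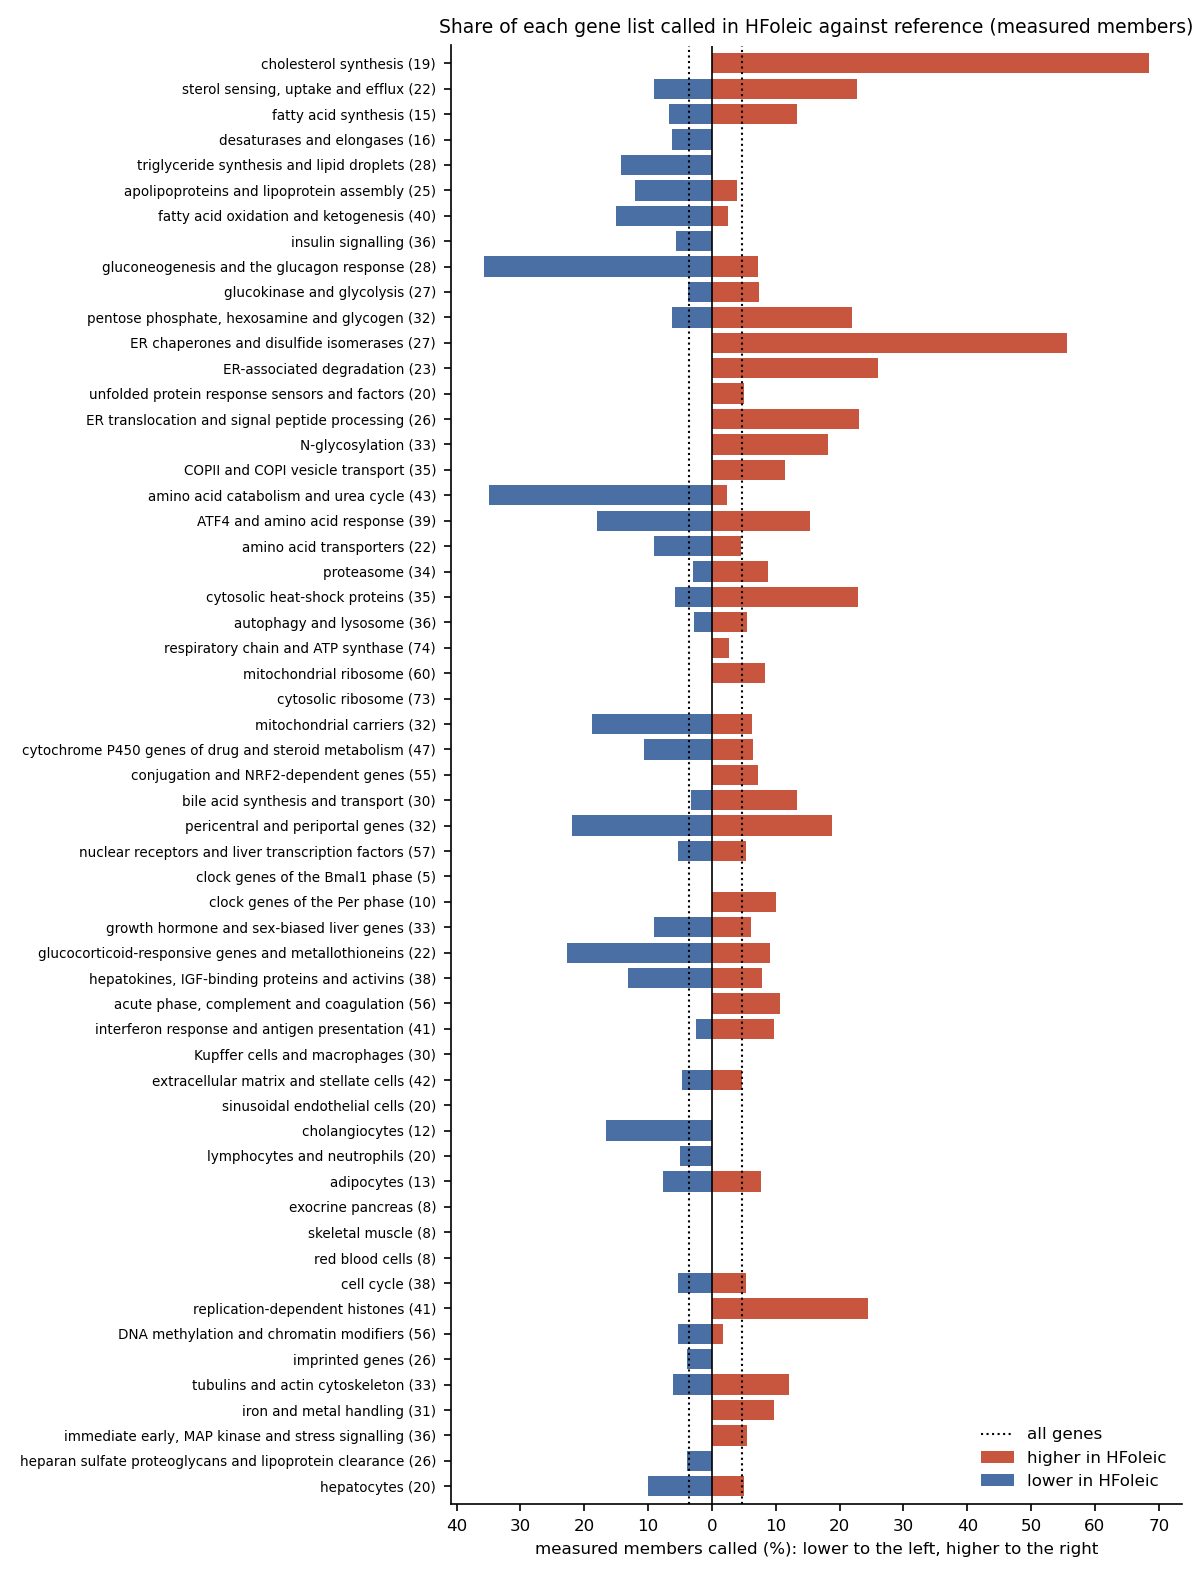
Percentage of the measured members of each of 57 gene lists (number of measured members in brackets) that limma called lower (bars to the left) or higher (bars to the right) in HFoleic than in the reference. Dotted lines mark the percentages over all genes, 3.67% lower and 4.77% higher; cholesterol synthesis and ER chaperones reach farthest to the right, gluconeogenesis and amino acid catabolism to the left.

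Transcripts of the protein-folding machinery of the ER were higher in HFoleic mice. Of 27 measured ER chaperones and disulfide isomerases 15 rose and 0 fell, the 27 changes were all positive, and their median was 0.39 against -0.0004 over all genes. The count was 11 without reference mice 3, 4 and 5 and 15 with the clock score. The level of the whole list lay between 0.22 and 0.87 in the 8 HFoleic mice and between -0.43 and 0.25 in the 9 reference mice, relative to the reference mean, and 7 HFoleic mice exceeded every reference mouse.

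Single members are described by the lowest, median and highest log2 signal of each group. For Hspa5, the central ER chaperone BiP, these were 13.86, 14.70 and 15.10 in the reference and 15.05, 15.70 and 16.15 in HFoleic. Its rise of 0.99 (SE 0.18, adjusted p 0.00253) was a 1.99-fold difference and was seen with all 3 probes, and 7 of 8 HFoleic mice exceeded every reference mouse. Pdia6, a disulfide isomerase, went from 13.43, 13.87 and 14.19 to 14.40, 14.84 and 15.18 with no overlap between the groups, a change of 0.97 (SE 0.13, adjusted p 0.000274). Pdia4, of the same enzyme family, also separated all mice, with 8.98, 9.49 and 10.13 in the reference and 10.18, 10.54 and 11.04 in HFoleic and a change of 0.91 (SE 0.15, adjusted p 0.00102). The lectin chaperones that hold glycoproteins until they are folded rose as well, Calr by 0.67 (SE 0.15, adjusted p 0.00724) and Canx by 0.31 (SE 0.06, adjusted p 0.00316), and Hsp90b1, the ER form of HSP90, by 0.59 (SE 0.11, adjusted p 0.00217). Canx and Hsp90b1 separated the groups completely, while in Calr reference mouse 5, at 12.11, was far below the other reference mice. The largest rises in the list were those of small secreted or luminal cofactors, namely Sdf2l1 with 1.68 (SE 0.32, adjusted p 0.00277), Manf with 1.26 (SE 0.25, adjusted p 0.00447) and Creld2 with 1.24 (SE 0.25, adjusted p 0.00426). In each of these 3 genes 6 of 8 HFoleic mice lay above the reference range.

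Transcripts for the retrotranslocation and degradation of misfolded proteins followed in part. Of 23 genes of ER-associated degradation 6 rose and 0 fell. Derl3, a derlin of the ER membrane that is induced by ER stress, had 6.05, 7.04 and 8.31 in the reference and 8.01, 10.48 and 11.56 in HFoleic. It rose by 2.82 (SE 0.44, adjusted p 0.000912), or 7.04-fold, with 5 HFoleic mice at 10.46 to 11.56 and 3 at 8.01 to 8.97. The ubiquitin ligase Syvn1 rose by 0.78 (SE 0.14, adjusted p 0.00253), its partner Sel1l by 0.55 (SE 0.11, adjusted p 0.00434), the scaffold Herpud1 by 0.81 (SE 0.17, adjusted p 0.0047), and Derl2, which separated all mice, by 0.39 (SE 0.06, adjusted p 0.000703). The sixth was Selk, a selenoprotein of the complex.

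Among 20 sensors and transcription factors of the unfolded protein response 1 was called, a rise (5%, near the 4.77% of all genes). Xbp1, the factor that induces many chaperone and degradation genes, was at 13.65, 14.01 and 14.35 in the reference and 14.27, 14.68 and 15.07 in HFoleic and rose by 0.67 (SE 0.11, adjusted p 0.000864), with all 3 probes called higher and 7 of 8 HFoleic mice above the reference range. Splicing of its transcript was not analysed here. The sensors Atf6 (-0.02, adjusted p 0.898) and Ern1 (0.21, adjusted p 0.237) and the stress factor Ddit3, which codes for CHOP (-0.03, adjusted p 0.935), were not called.

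Earlier and later steps of secretion gave fewer calls. Of 26 genes of ER translocation and signal peptide processing 6 rose and 0 fell, with a median of 0.16, of 33 N-glycosylation genes 6 rose and 0 fell, with a median of 0.10, and of 35 genes of COPII and COPI vesicle transport 4 rose and 0 fell. The counts were 4, 5 and 2 without reference mice 3, 4 and 5, the N-glycosylation count was 10 without HFoleic mouse 6, and the vesicle transport count was 2 without HFoleic mouse 1. Gmppb, which makes the GDP-mannose used for glycans, rose by 0.70 (SE 0.12, adjusted p 0.00176). Uggt1, which re-glucosylates unfolded glycoproteins so that they bind calnexin again, rose by 0.44 (SE 0.07, adjusted p 0.00121). Sec11a, the catalytic subunit of the signal peptidase, separated all mice with 11.40, 11.82 and 11.87 in the reference and 11.89, 12.03 and 12.24 in HFoleic, although its change was only 0.31 (SE 0.07, adjusted p 0.00701).

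**Figure D2:**
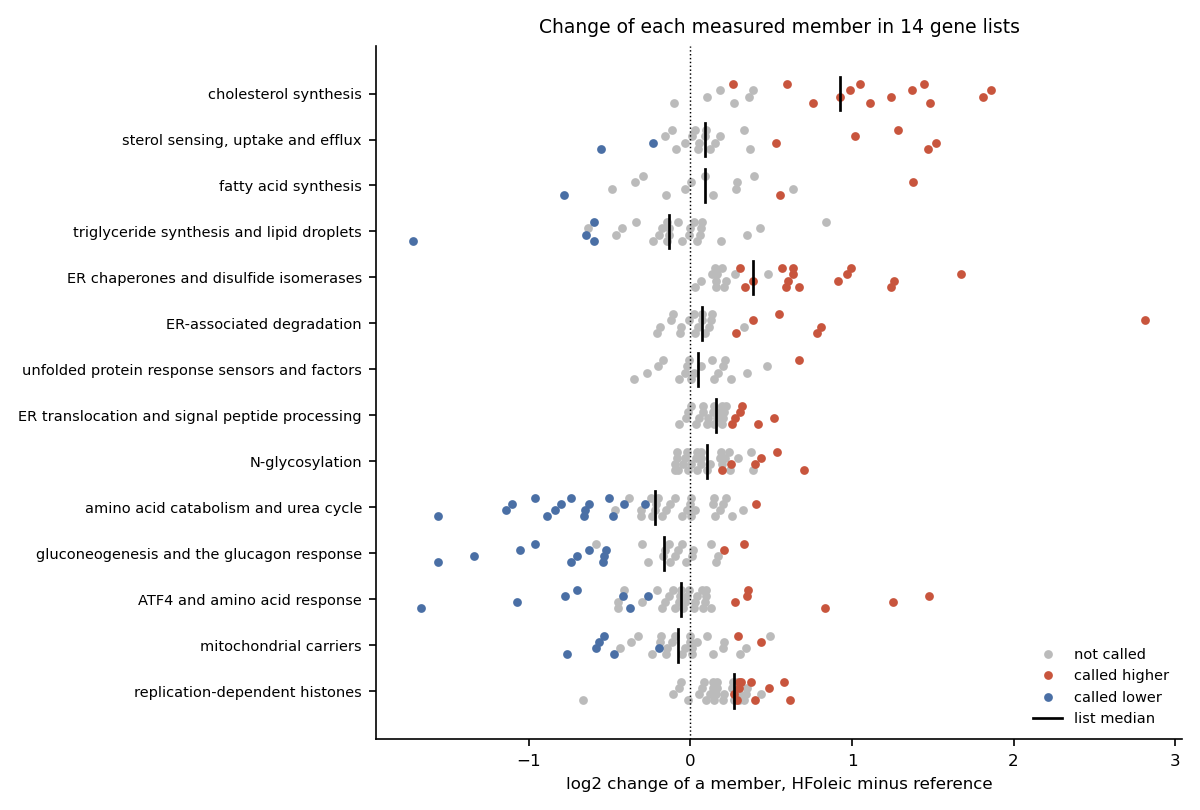
Log2 change (HFoleic minus reference) of every measured member of 14 gene lists, 1 point per gene. Red points were called higher, blue points lower and grey points were not called, and the vertical bar is the median of the list; all ER chaperones lie to the right of 0, and the calls in amino acid catabolism and gluconeogenesis lie almost wholly to the left.

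Because chaperone genes moved together, the sequence before their start sites was read. Promoter windows of 300 bases, 250 before and 50 after each RefSeq start on GRCm38.p6, were available for 12636 of the 16968 array symbols. The ER stress response element, written here as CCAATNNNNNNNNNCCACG on either strand, occurs in 39 of all 32851 windows (0.119%), those of 37 genes. It was found in 8 of the 23 ER chaperone genes with a window and in 2 of 18 genes of ER-associated degradation. Of the 22 array symbols that hold it 10 were called higher (45.5%) and 1 lower, against 5.14% and 3.62% of all array symbols with a window. The 10 were Hspa5, Hsp90b1, Calr, Canx, Pdia6, Dnajc3, Creld2, Derl3, Syvn1 and, outside the ER lists, the RNA-binding protein gene Hnrnpa3 (0.23, adjusted p 0.0316). The gene called lower was Acacb, a mitochondrial acetyl-CoA carboxylase, also outside the ER lists. Those lists were chosen with earlier results of these data known, and all of the 10 but Hnrnpa3 belong to them. The share of calls is thus not an independent test of the element. The calls of Dnajc3, Hnrnpa3 and Acacb were lost in 17, 10 and 7 of 29 alternatives. Of the 13 called chaperone genes with a window 7 held the element. Sdf2l1, Pdia3, Pdia4, Dnajb9, Dnajb11 and Txndc5 rose too but had no such match in their windows. The same held for Herpud1, Derl2, Sel1l and Selk among the genes of ER-associated degradation. Other motifs were searched as well, and the CRE (TGACGTCA) lay in 1 of 11 called gluconeogenesis genes with a window. The 250 bases before the start of 6 of the genes that rose are printed with the element in capitals, because they belong to the chaperones and the derlin described above. They lie at chr2:34771840-34772089 (plus strand) for Hspa5, chr12:17266339-17266588 (plus) for Pdia6, chr10:75893148-75893397 (plus) for Derl3, chr15:88819396-88819645 (plus) for Creld2, chr10:86705445-86705694 (minus) for Hsp90b1 and chr8:84846932-84847181 (minus) for Calr, and each is written 5′ to 3′ along its gene.
Hspa5: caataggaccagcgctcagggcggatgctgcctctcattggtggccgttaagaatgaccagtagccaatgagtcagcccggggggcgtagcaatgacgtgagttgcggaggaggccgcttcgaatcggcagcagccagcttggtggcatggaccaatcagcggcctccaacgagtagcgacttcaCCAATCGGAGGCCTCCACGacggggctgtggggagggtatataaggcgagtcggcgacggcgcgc
Pdia6: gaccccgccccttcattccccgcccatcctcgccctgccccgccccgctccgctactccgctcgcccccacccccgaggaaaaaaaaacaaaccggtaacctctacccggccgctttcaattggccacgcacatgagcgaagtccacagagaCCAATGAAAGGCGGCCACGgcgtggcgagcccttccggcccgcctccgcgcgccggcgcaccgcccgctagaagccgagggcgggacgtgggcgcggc
Derl3: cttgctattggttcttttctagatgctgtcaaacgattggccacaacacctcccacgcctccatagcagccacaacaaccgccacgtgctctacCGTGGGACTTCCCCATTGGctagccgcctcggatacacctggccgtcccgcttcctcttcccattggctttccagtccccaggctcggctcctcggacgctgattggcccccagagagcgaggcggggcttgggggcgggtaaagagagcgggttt
Creld2: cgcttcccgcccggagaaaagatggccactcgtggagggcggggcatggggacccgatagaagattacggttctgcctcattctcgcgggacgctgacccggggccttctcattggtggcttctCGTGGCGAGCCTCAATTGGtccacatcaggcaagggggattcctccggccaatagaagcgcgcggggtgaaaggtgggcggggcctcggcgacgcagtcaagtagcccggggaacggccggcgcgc
Hsp90b1: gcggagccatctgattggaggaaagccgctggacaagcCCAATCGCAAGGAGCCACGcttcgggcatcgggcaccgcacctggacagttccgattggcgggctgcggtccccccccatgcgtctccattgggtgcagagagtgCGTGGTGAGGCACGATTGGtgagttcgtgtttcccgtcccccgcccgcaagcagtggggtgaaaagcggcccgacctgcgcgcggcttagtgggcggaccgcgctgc
Calr: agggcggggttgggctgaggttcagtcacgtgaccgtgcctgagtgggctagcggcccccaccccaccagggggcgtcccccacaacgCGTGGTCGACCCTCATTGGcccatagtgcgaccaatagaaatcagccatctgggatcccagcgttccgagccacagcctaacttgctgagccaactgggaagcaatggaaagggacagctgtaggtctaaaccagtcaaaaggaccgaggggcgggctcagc
The element ends 46 bases before the start in Hspa5 and 79 in Pdia6, and Hsp90b1 holds it in both orientations. In Derl3, Creld2 and Calr it is read on the opposite strand, as CGTGG at the left and ATTGG at the right. A match of letters is a description and not a shown binding site.

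**Figure D3:**
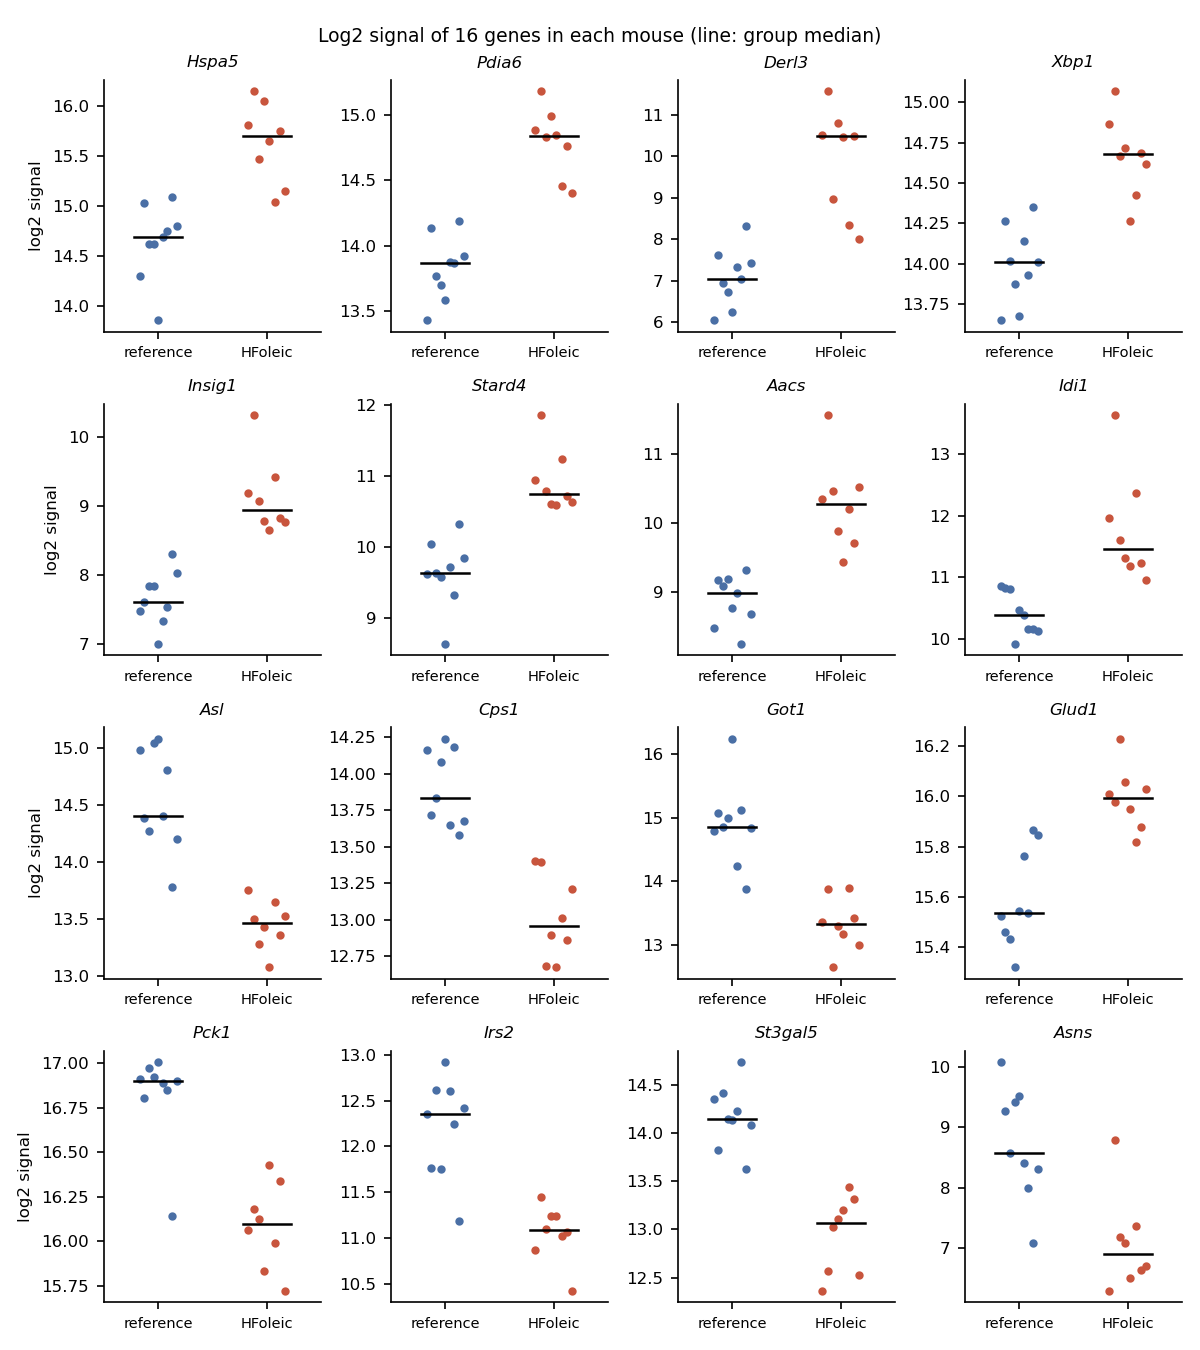
Log2 signal of 16 genes in each of 9 reference and 8 HFoleic mice, 1 point per mouse, with the group median as a line; each panel has its own scale. Pdia6, Insig1, Stard4, Aacs, Idi1, Asl, Cps1 and St3gal5 show no overlap between the groups, and reference mouse 8 is the low reference value of Pck1.

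Transcripts of sterol synthesis enzymes were higher along most of the pathway in the main fit. Of 19 measured enzymes 13 rose and 0 fell, with a median change of 0.93. With the clock score, or without reference mice 3, 4 and 5, 7 were called. Beyond the sterol C4-methyl oxidase Msmo1 (1.86) and the squalene epoxidase Sqle (1.81, adjusted p 0.0181, 0.0923 with the clock score and 0.0651 without reference mice 3, 4 and 5), which changed most, the early steps from mevalonate to isoprenoids took part. Idi1, the isopentenyl-diphosphate isomerase, was at 9.92, 10.39 and 10.86 in the reference and 10.96, 11.47 and 13.63 in HFoleic and separated all mice, with a change of 1.37 (SE 0.29, adjusted p 0.00615). Mvd, the decarboxylase before it, went from 6.79, 6.92 and 7.29 to 7.52, 8.15 and 10.92, also without overlap, by 1.48 (SE 0.34, adjusted p 0.00965), a call that was lost with the clock score (adjusted p 0.0536) and without reference mice 3, 4 and 5 (adjusted p 0.0519). Sc5d, a late desaturase, rose by 0.60 (SE 0.11, adjusted p 0.00182). HFoleic mouse 2 led the list, and mean levels of the pathway ran from 0.12 to 2.21 over the HFoleic mice with a median of 0.68, against -0.43 to 0.16 in the reference.

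The sensors and carriers of sterols were split. Of 22 genes 5 rose and 2 fell. Insig1, which holds SREBP in the ER, was at 7.00, 7.61 and 8.30 in the reference and 8.65, 8.95 and 10.32 in HFoleic, a rise of 1.47 (SE 0.21, adjusted p 0.000445) without overlap. Its relative Insig2 fell by 0.55 (SE 0.12, adjusted p 0.00695). Stard4, a cytosolic sterol carrier, rose by 1.28 (SE 0.20, adjusted p 0.000794) and also separated every mouse. Srebf1 rose by 1.02 (SE 0.22, adjusted p 0.00603), whereas Srebf2, the paralog tied to cholesterol, was not called (0.05, adjusted p 0.827). The core of the sterol regulatory element (TCACNCCAC, both strands) lies in 1.24% of all windows and in 1 of the 14 cholesterol synthesis genes that have a window. That gene is Hmgcs1, which acts early in the pathway and rose by 1.05 (SE 0.19, adjusted p 0.00241); its window is shown for this match, at chr13:119690101-119690350 on the plus strand, with the core in capitals.
Hmgcs1: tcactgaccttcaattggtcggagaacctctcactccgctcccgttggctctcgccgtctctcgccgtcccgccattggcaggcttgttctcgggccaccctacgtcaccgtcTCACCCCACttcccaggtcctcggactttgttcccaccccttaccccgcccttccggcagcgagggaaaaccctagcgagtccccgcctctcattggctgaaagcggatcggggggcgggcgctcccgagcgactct

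Fatty acid synthesis did not follow as a list, with 2 genes higher and 1 lower of 15. Aacs, which activates acetoacetate in the cytosol for lipid synthesis, rose by 1.37 (SE 0.25, adjusted p 0.00218), from 8.26, 8.99 and 9.33 to 9.43, 10.27 and 11.56 without overlap. Mlxipl, the carbohydrate-responsive factor ChREBP, rose by 0.55 (SE 0.10, adjusted p 0.00176) and separated all mice, but 1 of its 3 probes was called. Fasn (0.63, adjusted p 0.154) and Scd1 (-0.49, adjusted p 0.158) were not called. Fasn was, however, called higher without reference mice 3, 4 and 5 (adjusted p 0.018) and Scd1 lower with the clock score (adjusted p 0.0141). Reference mouse 4, the highest mouse for adipocyte genes, was also the highest reference mouse for this list, at 0.55.

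Some genes of lipid storage and lipolysis were lower. Of 28 genes of triglyceride synthesis and lipid droplets 4 fell and 0 rose. Agpat6, a glycerol-3-phosphate acyltransferase now also called Gpat4, was at 14.13, 14.44 and 14.71 in the reference and 13.61, 13.74 and 13.94 in HFoleic, and fell by 0.65 (SE 0.08, adjusted p 0.000185) with all 3 probes and no overlap. Pnpla2, the adipose triglyceride lipase, fell by 0.60 (SE 0.10, adjusted p 0.0017), also without overlap, and Plin5, a droplet protein of oxidative tissues, by 0.60 (SE 0.13, adjusted p 0.00615). Cidec, which fuses droplets, was at 11.51, 12.91 and 14.04 in the reference and 9.45, 11.11 and 12.62 in HFoleic and fell by 1.72 (SE 0.47, adjusted p 0.0261), but its call was lost in 8 of 29 alternatives. On the side of uptake, Sdc1, the syndecan that binds remnant lipoproteins, fell by 0.75 (SE 0.10, adjusted p 0.000406), from 11.64, 12.03 and 12.62 to 11.08, 11.36 and 11.44 with no overlap and all 3 probes called. Vldlr rose by 0.83 (SE 0.24, adjusted p 0.0362), a call lost in 15 of 29 alternatives.

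Fatty acid oxidation and ketogenesis had 6 genes lower and 1 higher of 40, 3 lower with the clock score and 4 without reference mice 3, 4 and 5. Without HFoleic mouse 1, 2 or 8 or reference mouse 1, 3, 6 or 9 alone 3 were lower. Cpt1a, which admits fatty acids to mitochondria, was at 14.82, 15.05 and 15.22 in the reference and 14.44, 14.62 and 14.98 in HFoleic and fell by 0.43 (SE 0.08, adjusted p 0.00265). In HFoleic mouse 6 (14.98) and reference mouse 8 (14.82) it lay toward the other group. Ehhadh, a peroxisomal bifunctional enzyme and known PPAR alpha target, fell by 1.12 (SE 0.27, adjusted p 0.0132), without a call when the clock score was added (adjusted p 0.0797) or without reference mice 3, 4 and 5 (adjusted p 0.0501). The fall of Acot2, a mitochondrial acyl-CoA thioesterase, was 0.99 (SE 0.29, adjusted p 0.0408) and was lost in 15 of 29 alternatives. The list as a whole had a median change of 0.06.

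Genes of amino acid breakdown and the urea cycle were called mostly lower. Of 43 genes 15 were lower, 1 was higher and 27 were not called, with a median of -0.22, and 10 were lower without reference mice 3, 4 and 5. In 7 of 8 HFoleic mice the mean of the list lay below that of every reference mouse. Cps1, which fixes ammonia at the entry of the urea cycle, was at 13.58, 13.83 and 14.24 in the reference and 12.67, 12.95 and 13.40 in HFoleic, and fell by 0.89 (SE 0.15, adjusted p 0.00182). Asl, the argininosuccinate lyase, went from 13.78, 14.40 and 15.08 to 13.08, 13.47 and 13.75 and fell by 1.104 (SE 0.17, adjusted p 0.000756). Both separated all mice. Arg1, the last enzyme of the cycle, fell by 0.66 (SE 0.13, adjusted p 0.00375). Sdsl, which is related to serine dehydratase, fell by 1.14 (SE 0.21, adjusted p 0.0027), and of the sulfur amino acid enzymes Cth fell by 0.80 (SE 0.15, adjusted p 0.00244) and Mat1a by 0.65 (SE 0.11, adjusted p 0.00149). Sdsl and Cth showed no overlap between the groups. In tyrosine breakdown Hgd fell by 0.50 (SE 0.09, adjusted p 0.00266), and in lysine breakdown Aass fell by 0.74 (SE 0.16, adjusted p 0.00728). The exception was Glud1, the mitochondrial glutamate dehydrogenase, which rose by 0.41 (SE 0.08, adjusted p 0.00295), from 15.32, 15.53 and 15.87 to 15.82, 15.99 and 16.23, with 2 of 3 probes called.

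Of 32 carriers that move metabolites into and out of mitochondria 6 were lower (18.8%, against 3.67% of all genes). Another 2 were higher (6.25%, near the 4.77% of all genes) and 24 not called, with a median of -0.07. Slc25a22, a glutamate carrier, was at 11.86, 12.49 and 13.13 in the reference and 11.34, 11.77 and 12.07 in HFoleic and fell by 0.76 (SE 0.13, adjusted p 0.00179) with all 3 probes. Slc25a12, an aspartate-glutamate carrier of the malate-aspartate shuttle, separated the groups at 9.71, 10.12 and 10.53 against 9.36, 9.49 and 9.64 and fell by 0.59 (SE 0.09, adjusted p 0.000703). The respiratory chain and ATP synthase had 2 genes higher (2.70%, against 4.77% of all genes) and 0 lower (against 3.67%) of 74. The cytosolic ribosome had 0 of 73 in either direction. The mitochondrial ribosome had 5 higher (8.33%) and 0 lower of 60, or 2 higher with either alternative, with Mrpl1 rising by 0.33 (SE 0.06, adjusted p 0.00265).

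Gluconeogenesis and the glucagon response had 10 genes lower and 2 higher of 28, with 6 lower without reference mice 3, 4 and 5. Got1, the cytosolic aspartate transaminase, was at 13.87, 14.86 and 16.25 in the reference and 12.64, 13.33 and 13.89 in HFoleic and fell by 1.56 (SE 0.23, adjusted p 0.000471), or 2.95-fold. Pck1, which makes phosphoenolpyruvate, had 16.14, 16.90 and 17.004 in the reference and 15.72, 16.09 and 16.43 in HFoleic and fell by 0.74 (SE 0.11, adjusted p 0.000688). The lowest reference value was that of mouse 8, and the other 8 reference mice lay at 16.8 or higher, above every HFoleic mouse. G6pc, which releases glucose, fell by 0.52 (SE 0.12, adjusted p 0.00944), not called with the clock score (adjusted p 0.0629) or without reference mice 3, 4 and 5 (adjusted p 0.0651). Kiss1, a glucagon-induced liver peptide, fell by 1.05 (SE 0.20, adjusted p 0.00263), and Igfbp1, which is switched off by insulin, fell by 1.34 (SE 0.26, adjusted p 0.00374). The coactivator Ppargc1a fell by 0.54 (SE 0.15, adjusted p 0.0318), and this call was lost in 11 of 29 alternatives.

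At the insulin side, Irs2, an insulin receptor substrate that rises in fasting, was at 11.19, 12.36 and 12.92 in the reference and 10.42, 11.08 and 11.45 in HFoleic and fell by 1.16 (SE 0.20, adjusted p 0.00188). In Irs2 5 of 8 HFoleic mice lay below the reference range. Of the 36 insulin signalling genes 2 were lower (5.56%, near the 3.67% of all genes) and 0 higher (against 4.77%). The 2 were Irs2 and the kinase gene Gsk3a (-0.20, adjusted p 0.0266, lost in 10 of 29 alternatives). Of 32 genes of the pentose phosphate, hexosamine and glycogen routes, which lead off glucose, 7 were called higher, 2 lower and 23 not called, with a median of 0.09. The 7 became 4 with the clock score and 4 without reference mice 3, 4 and 5. Gbe1, the glycogen branching enzyme, rose by 0.52 (SE 0.12, adjusted p 0.0113) with all 3 probes, Gfpt1, which opens the hexosamine route, by 0.44 (SE 0.10, adjusted p 0.0101), and Nans, which makes sialic acid, by 0.59 (SE 0.12, adjusted p 0.00448). Gbe1 was not called with the clock score (adjusted p 0.0624), nor Gfpt1 without reference mice 3, 4 and 5 (adjusted p 0.061).

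The genes of the amino acid response that the factor ATF4 controls did not move as a group. Of 39 genes 6 rose and 7 fell, with 4 and 2 when the clock score was added 4 and 3 without reference mice 3, 4 and 5, and 3 and 6 by the methods' t-test, and Atf4 itself was not called (0.17, adjusted p 0.232). Asns, the asparagine synthetase, was at 7.08, 8.58 and 10.07 in the reference and 6.29, 6.90 and 8.79 in HFoleic and fell by 1.67 (SE 0.38, adjusted p 0.00962), and without HFoleic mouse 2, the highest of its group at 8.79, the HFoleic range ended at 7.36. The Asns call was lost with the clock score (adjusted p 0.062) and without reference mice 3, 4 and 5 (adjusted p 0.0616). Chac1, which degrades glutathione, rose in the same mice from 7.66, 8.10 and 9.37 to 9.09, 9.39 and 10.56, by 1.25 (SE 0.26, adjusted p 0.00576). Gdf15, a stress hormone, rose by 1.48 (SE 0.45, adjusted p 0.0468) and Fgf21, a fasting hormone, fell by 1.07 (SE 0.30, adjusted p 0.0318), in calls that were lost in 16 and 14 of 29 alternatives. The core of the CHOP and ATF4 composite element (TGATGNAA, both strands) lies in 3.97% of all windows and in 14 of the 34 listed genes that have one. Of these 14, Chac1 and Vldlr rose, Asns, Fgf21 and Slc1a4 fell and 9 were not called. The windows of Asns (chr6:7693210-7693459, minus strand) and Chac1 (chr2:119350992-119351241, plus strand) are given, with the core in capitals on either strand, because it stands before genes that moved in opposite directions.
Asns: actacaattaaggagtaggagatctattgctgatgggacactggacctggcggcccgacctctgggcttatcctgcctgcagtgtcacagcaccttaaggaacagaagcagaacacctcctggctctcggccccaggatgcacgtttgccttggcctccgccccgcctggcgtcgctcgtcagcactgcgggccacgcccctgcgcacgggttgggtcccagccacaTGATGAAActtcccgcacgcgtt
Chac1: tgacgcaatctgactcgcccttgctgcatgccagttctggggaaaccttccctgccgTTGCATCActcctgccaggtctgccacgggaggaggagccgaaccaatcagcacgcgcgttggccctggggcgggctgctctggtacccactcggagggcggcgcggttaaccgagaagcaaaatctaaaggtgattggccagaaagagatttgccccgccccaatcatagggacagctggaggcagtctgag

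Cytosolic heat-shock proteins had 8 genes higher and 2 lower of 35. Fkbp4, a co-chaperone of HSP90 and steroid receptors, was at 12.60, 12.75 and 13.10 in the reference and 13.22, 13.36 and 13.48 in HFoleic and rose by 0.55 (SE 0.07, adjusted p 0.000185) with all 3 probes and no overlap. Hsph1 rose by 0.60 (SE 0.14, adjusted p 0.00951) and Hspb1 by 0.68 (SE 0.16, adjusted p 0.011), the latter not called with the clock score (adjusted p 0.0509) or without reference mice 3, 4 and 5 (adjusted p 0.0685). The 2 that fell are the cold-inducible RNA-binding proteins of the list. Rbm3 went from 11.67, 11.98 and 12.27 to 11.02, 11.24 and 11.45 without overlap, a fall of 0.77 (SE 0.10, adjusted p 0.000273) seen with 3 of 4 probes, and Cirbp fell by 0.84 (SE 0.15, adjusted p 0.00195).

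Genes of drug and bile acid metabolism were called in both directions. Of 47 cytochrome P450 genes 3 rose (6.38%, near the 4.77% of all genes) and 5 fell (10.6%, against 3.67%). These counts were 1 and 1 when the clock score was added and 5 and 2 without reference mice 3, 4 and 5. Leaving out 1 mouse gave 7 higher without reference mouse 5 and 1 higher without HFoleic mouse 1 or 8 or reference mouse 1. It gave 2 or 3 lower without HFoleic mouse 1, 2, 3, 5 or 8 or reference mouse 1, 5, 6 or 7. The genes that fell included Por, the reductase that supplies electrons to all microsomal P450 enzymes. Por was at 15.53, 15.80 and 15.88 in the reference and 14.62, 15.17 and 15.40 in HFoleic, with no overlap, and fell by 0.67 (SE 0.09, adjusted p 0.000274). Cyp26a1, which clears retinoic acid, rose by 1.06 (SE 0.19, adjusted p 0.00246). Cyp7a1, the rate-limiting enzyme of bile acid synthesis, was at 10.65, 11.70 and 12.89 in the reference and 8.95, 9.63 and 11.49 in HFoleic and fell by 1.61 (SE 0.37, adjusted p 0.00887), with 1 of 2 probes called. The bile salt export pump Abcb11 rose by 0.48 (SE 0.10, adjusted p 0.00593), and the uptake transporter Slco1b2 by 0.51 (SE 0.14, adjusted p 0.0295), a call lost in 8 of 29 alternatives. Of 55 genes of conjugation and the NRF2 response 4 rose and 0 fell (7.27%, against 4.77% of all genes), 2 without HFoleic mouse 1, 1 without reference mice 3, 4 and 5 and 10 without reference mouse 8, among them Gsta3 by 0.41 (SE 0.10, adjusted p 0.0134) and Aox3 by 0.58 (SE 0.15, adjusted p 0.0206). Neither was called without reference mice 3, 4 and 5 (adjusted p 0.0593 and 0.0519), nor Gsta3 with the clock score (adjusted p 0.0634). Zonated genes moved in both directions, with 6 higher and 7 lower of 32 (2 and 3 with the clock score, 3 and 4 without reference mice 3, 4 and 5). Among the called genes, the pericentral Lgr5 (0.60, adjusted p 0.0167) and Lect2 (0.66, adjusted p 0.0184) were higher. The periportal Sds (-0.96, adjusted p 0.00692), Gls2 (-0.48, adjusted p 0.0223) and Arg1 (-0.66) were lower. These are examples, the other called members are not named, and the list had a median of 0.02. Calls were not counted by zone, so these examples do not show a shift between zones. In reference mouse 5 Sds was at 14.22 and Gls2 at 15.48, against at most 13.03 and 14.87 in the other reference mice. With the clock score the adjusted p was 0.0782 for Lgr5, 0.101 for Lect2 and 0.0623 for Gls2, and without reference mice 3, 4 and 5 it was 0.0547, 0.061 and 0.0844, so these 3 calls were lost in both.

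**Figure D4:**
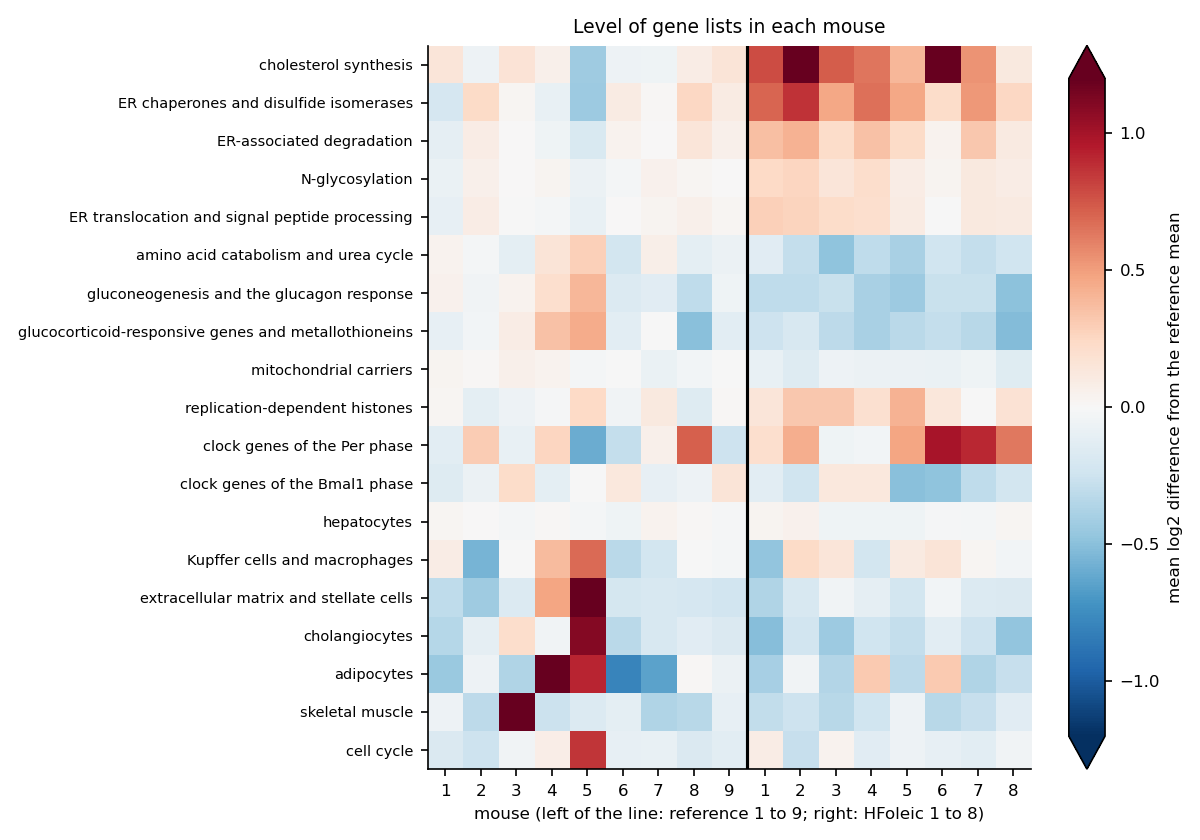
Mean log2 difference from the reference mean for 19 gene lists in each mouse (columns; reference 1 to 9 left of the line, HFoleic 1 to 8 right of it); the colour scale is cut at 1.2 in either direction. ER and cholesterol lists are red in the HFoleic mice, amino acid catabolism and gluconeogenesis are blue, and the lists of other cells are uneven among the reference mice, with reference mouse 5 highest for matrix and cholangiocyte genes.

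Lists of inflammation and of other liver cells differed in their share of calls. Of 30 Kupffer cell and macrophage genes and of 20 sinusoidal endothelial genes 0 were called. Of 42 matrix and stellate cell genes 2 rose and 2 fell (4.76% each, near the 4.77% and 3.67% of all genes). The matrix genes had a median of -0.19, with mouse means of -0.43 to 1.24 in the reference and -0.37 to -0.04 in HFoleic. Timp3, a protease inhibitor of the matrix, fell by 0.63 (SE 0.18, adjusted p 0.0295), a call lost in 7 of 29 alternatives, for example without reference mice 3, 4 and 5 (-0.32, adjusted p 0.0827). Of 12 cholangiocyte genes 2 were lower (16.7%, against 3.67% of all genes), Sox9 (-0.65, lost in 6 of 29 alternatives) and the mucosal peptide Tff3 (-2.68). The mouse means of this list were -0.34 to 1.1 in the reference and -0.51 to -0.13 in HFoleic. Of 56 acute phase, complement and coagulation genes, which code for secreted defence proteins, 6 were called higher (10.7%, against 4.77% of all genes) and 0 lower. The count of 6 was 3 without reference mice 3, 4 and 5 and 2 with the scanner's processed signal. Mbl2, a mannose-binding lectin, was at 15.50, 15.80 and 15.97 in the reference and 16.08, 16.29 and 16.48 in HFoleic, without overlap, and rose by 0.49 (SE 0.08, adjusted p 0.00112). Saa4, a constitutive serum amyloid, rose by 0.96 (SE 0.18, adjusted p 0.00265). Interferon and antigen presentation genes had 4 higher (9.76%) and 1 lower of 41, among them the GTPase Gbp6 with 1.0 (SE 0.25, adjusted p 0.0142). With the clock score 0 were higher, and 2 were higher without reference mouse 1 or HFoleic mouse 8.

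Of 22 glucocorticoid-responsive genes and metallothioneins 5 fell and 2 rose, with a median of -0.31, 2 fell with either alternative and 3 fell without HFoleic mouse 1 or 4 or reference mouse 1, 7 or 9. Cdkn1a, a cell cycle inhibitor, was at 7.36, 9.59 and 10.88 in the reference and 6.85, 7.40 and 8.78 in HFoleic and fell by 1.70 (SE 0.42, adjusted p 0.0145), with no call once the clock score was added (adjusted p 0.0896) or without reference mice 3, 4 and 5 (adjusted p 0.0939). The related stress genes Gadd45a and Gadd45b parted, since Gadd45a rose by 0.76 (SE 0.19, adjusted p 0.0178) and Gadd45b fell by 1.14 (SE 0.29, adjusted p 0.018). Neither was called with the clock score (adjusted p 0.0856 and 0.102), nor Gadd45b by the methods' t-test. Of 41 replication-dependent histones 10 were called higher (24.4%, against 4.77% of all genes) and 0 lower, with a median of 0.27. Of 38 cell cycle genes 2 were called in each direction (5.26% each, near the 4.77% and 3.67% of all genes). The histone count was 15 without reference mouse 5, 5 without reference mice 3, 4 and 5 or by the methods' t-test, 6 with the clock score, 4 without HFoleic mouse 5 and 6 without HFoleic mouse 2, 3 or 8 or reference mouse 1, 2 or 3. Histone genes share much of their sequence, so probes of this family may not tell members apart. Of the Per-phase clock genes, Nr1d2 was called with a rise of 0.58 (SE 0.14, adjusted p 0.011). The call was lost without reference mice 3, 4 and 5 (adjusted p 0.0658) and with the clock score (adjusted p 0.0561). Nr1d2 is itself part of that score, so the loss with the score says nothing about the gene. Dbp, which ran from 9.77 to 12.90 in the reference and from 10.25 to 13.96 in HFoleic, was not called (1.60, adjusted p 0.133). Dnmt3b, a DNA methyltransferase, fell by 0.63 (SE 0.15, adjusted p 0.0119), the nuclear receptor gene Esrra by 0.37 (SE 0.08, adjusted p 0.00569), and the imprinted cation transporter gene Slc22a3 by 0.79 (SE 0.20, adjusted p 0.0161), both of the latter without overlap. Dnmt3b was not called with the clock score (adjusted p 0.0748), nor Slc22a3 by the methods' t-test. Steap4, a metalloreductase, rose by 0.95 (SE 0.20, adjusted p 0.00649). In the cytoskeleton Tpm2 rose by 1.25 (SE 0.26, adjusted p 0.00514) and Tuba8 fell by 1.99 (SE 0.38, adjusted p 0.00284).

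Outside the 57 lists lay 1184 of the 1432 called genes. Those described here separated all mice and were of varied function. They were taken from the 15 rises and 15 falls with the largest mean change among such named genes. Which of these are described was chosen after their values were seen. Mid1ip1, which promotes polymerisation of acetyl-CoA carboxylase, was at 10.26, 10.81 and 11.25 in the reference and 11.50, 11.99 and 12.75 in HFoleic and rose by 1.20 (SE 0.18, adjusted p 0.000522). Tle3, a transcriptional corepressor, was at 7.64, 8.25 and 8.91 and 9.03, 9.26 and 9.33 and rose by 0.97 (SE 0.15, adjusted p 0.000791) with 3 of 4 probes called. The kinase gene Aatk rose by 1.47 (SE 0.25, adjusted p 0.00139), and the organic anion transporter family gene Slc22a27 by 1.70 (SE 0.34, adjusted p 0.00426), the latter well above background on only 5 of 9 reference arrays. Dio1, the deiodinase that activates thyroid hormone, rose by 0.77 (SE 0.19, adjusted p 0.0139) with all 3 probes. Reference mouse 5 was low in Dio1, at 9.02 against 10.13 to 10.95 in the other reference mice, and without mice 3, 4 and 5 its change was 0.60 (adjusted p 0.00978), while the call was lost with the clock score (adjusted p 0.0713) and by the methods' t-test. Papss1, which makes the sulfate donor PAPS, rose by 0.63 (SE 0.09, adjusted p 0.000445). Cks1b, a subunit of cyclin-dependent kinases, rose by 0.71 (SE 0.10, adjusted p 0.000467).

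Among the falls outside the lists, St3gal5, the GM3 ganglioside synthase, was at 13.63, 14.14 and 14.73 in the reference and 12.36, 13.06 and 13.44 in HFoleic and fell by 1.23 (SE 0.16, adjusted p 0.000273), or 2.34-fold, with the groups apart. Abtb2, an ankyrin and BTB domain protein, fell by 0.91 (SE 0.18, adjusted p 0.00445), Lgals4, a galectin, by 0.64 (SE 0.12, adjusted p 0.00215), and Aprt, which salvages adenine, by 0.61 (SE 0.13, adjusted p 0.00615) with all 3 probes. Atl2, an atlastin that shapes the ER network, was at 9.30, 9.66 and 10.04 in the reference and 8.79, 9.15 and 9.28 in HFoleic and fell by 0.60 (SE 0.10, adjusted p 0.00112). Rnf103, an ER-bound ubiquitin ligase, fell by 0.32 (SE 0.06, adjusted p 0.0035) with all 3 probes, a call lost with the scanner's processed signal. These last 2 code for proteins of the ER membrane and ran against the rise of the chaperones in all 8 HFoleic mice. They are examples picked after their values were seen. Among the 15 falls only Ldb1 (-0.31) changed less than Rnf103.

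Probes of the same symbol disagreed in 5 genes, which had at least 1 probe called in each direction. In Cyp2u1 the brightest probe, at a mean of 16.4 in HFoleic, fell by 0.43 (adjusted p 0.011), while a dimmer probe, at 7.98, rose by 0.44 (adjusted p 0.00895). Ralgps1 had a probe with a change of -0.77 (adjusted p 0.00337) and another with 0.34 (adjusted p 0.0103). The symbol Gcm1 carried probes that the array design places on chromosomes 5 and 7, so it is not read as 1 gene. The other 2 were Ankrd33b and Dqx1. Of the 725 called genes with several probes, 174 were called with all of them.

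The fish-oil lineage on the high-fat diet was compared with the same 9 reference mice, so these values share their control arrays with those given before. In HFepa minus reference 63 of 16968 genes were called (0.371%). The genes set side by side here were chosen after their values were seen. Called in HFepa minus reference were Got1 with -1.23 (adjusted p 0.0274), Agpat6 with -0.37 (adjusted p 0.0428), Sdc1 with -0.54 (adjusted p 0.031), Slc25a22 with -0.65 (adjusted p 0.0385), Kiss1 with -0.93 (adjusted p 0.0428), Abtb2 with -0.84 (adjusted p 0.04999), Hsph1 with 0.71 (adjusted p 0.031) and Hspb1 with 0.82 (adjusted p 0.0315). For Hsph1 and Hspb1 the value in HFepa was above that in HFoleic, and for the other 6 it was nearer to 0. Not called there were Hspa5 with 0.29 (adjusted p 0.563), Pdia6 with 0.24 (adjusted p 0.464), Derl3 with 0.17 (adjusted p 0.931), Asl with -0.61 (adjusted p 0.112), Pck1 with -0.29 (adjusted p 0.259) and St3gal5 with -0.45 (adjusted p 0.22). In the test of HFepa against HFoleic itself the adjusted p was 0.229 for Hspa5, 0.116 for Pdia6, 0.116 for Derl3, 0.383 for Asl, 0.214 for Pck1, 0.117 for St3gal5 and 0.266 for Agpat6, and it lay from 0.579 for Sdc1 to 0.956 for Abtb2 in the remaining 7, so a difference between the lineages was not shown for any of the 14.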

How the data were processed

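Liver RNA of 24 mice was hybridised to 1-colour Agilent arrays, 1 per mouse. The authors deposited a table of log2 signals for 32176 probes, filtered and quantile normalised (2550 empty cells, column medians 7.82 to 7.83), and the scanner output of each array (Agilent Feature Extraction 10.10.1.1). Intensities in the scanner output are raw per the file headers, and its marks for outlier spots and spots well above background are coded 0 or 1 per the file headers. The filter behind the log2 table is not stated. Each of its columns tracked the raw median spot intensity of its own array on the log2 scale (r at least 0.9997). Gene symbols are those of the scanner files.

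A group-means model over all 24 arrays was fitted to the log2 values (lmFit and eBayes of limma 3.58.1, R 4.3.3, two-sided, Benjamini-Hochberg over all probes, 0.05). The contrast was HFoleic minus reference. A gene was read from the probe with the highest mean, and 4755 probes have no symbol. Nothing says more of the replicates than 1 array per animal, and the number of arrays limits the precision. The 57 lists of 1686 measured genes, 248 of them called, and the genes described were chosen with earlier results of these data known. Named are lead genes, up to 4 called genes with the largest change per list, up to 15 rises and 15 falls outside the lists whose groups do not overlap, and up to 8 genes with opposed probes; further members are named as examples chosen after their values were seen. RefSeq promoter windows were matched for 15278 symbols directly, 661 by accession and 101 by synonym. Alternatives were the scanner's median and processed signals, normexp (offset 50), filters on dim probes and empty cells, the 17 arrays alone, the methods' t-test, slide, slide row and replicate number as blocks, the clock score and leaving out mice. Scripts were tested on simulated data. Files were read with data.table (version 1.17.8), pandas 2.3.3 and numpy 2.4.6 in Python 3.11.15, and figures drawn with matplotlib 3.10.9. Some genes are not reported here.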

Additional observations from a re-analysis of the deposited data

Results flagged for a closer look

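In 30 of 380 group values examined (12 of 114 list levels and 18 of 266 gene levels) 1 mouse lay far from the rest of its group, where chance alone flags about 5%. Reference mouse 5 accounted for 13 of them. Its list levels, relative to the reference mean, were -0.43 for cholesterol synthesis, -0.35 for bile acid synthesis and transport, 1.1 for cholangiocytes, 0.86 for cell cycle and 0.50 for tubulins and actin cytoskeleton, and its log2 signals were 14.35 for Hsp90b1, 12.11 for Calr, 7.83 for Cyp26a1, 9.02 for Dio1, 14.22 for Sds, 15.48 for Gls2, 9.23 for Sox9 and 14.46 for Slco1b2. Reference mouse 3 was high in skeletal muscle genes (1.71) and reference mouse 4 in fatty acid synthesis (0.55). Reference mouse 8 was low in Pck1 (16.14), Cpt1a (14.82) and Insig2 (14.71), and reference mouse 6 in Gbp9 (5.39).

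HFoleic mouse 2 was high in Sc5d (14.38), Insig1 (10.32) and Asns (8.79) and low in Tpm2 (8.87) and in DNA methylation and chromatin modifiers (-0.08). HFoleic mouse 3 was high in the ATF4 and amino acid response (0.17) and in tubulins and actin cytoskeleton (0.25), HFoleic mouse 6 in desaturases and elongases (0.23) and Cpt1a (14.98), HFoleic mouse 4 in Sox9 (7.65), and HFoleic mouse 1 was low in the cytosolic ribosome (-0.18).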

How the results depend on the processing

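With the clock score as a covariate 1013 probes were called (569 higher, 444 lower), 686 genes (376 higher, 310 lower), 162 genes of the lists and 7 cholesterol synthesis genes. Without reference mice 3, 4 and 5, an alternative chosen after seeing the data, 1292 probes (671 higher, 621 lower), 871 genes (474 higher, 397 lower), 7 cholesterol synthesis genes and 6 lower gluconeogenesis genes were called, and the smaller number of mice is part of that fit. The cause of the loss with the clock score was not tested. Over the other processing alternatives the probe count ran from 1668 with the replicate block to 2224 with the slide row as a block, and the methods' t-test called 1691 probes. Replicate numbers did not pair the mice: deviations of the 8 same-numbered pairs correlated at -0.158 to 0.104, and 1 of 8 mice matched its own number best, so the replicate block is given only as a value. Leaving out 1 mouse at a time gave 1558 (without reference mouse 1) to 2955 probes (without reference mouse 8), 857 to 1670 higher and 683 to 1285 lower, 1045 to 1938 genes, 578 to 1107 higher and 457 to 831 lower, 197 to 316 list genes, 12 to 13 cholesterol synthesis genes, 8 to 10 lower gluconeogenesis genes, 13 to 16 ER chaperones and 13 to 16 lower genes of amino acid catabolism. Of the 128 called genes examined one by one, 88 kept their call in all 29 alternatives and 0 changed direction in any of them. The alternatives use the arrays by which these genes were called, so a kept direction is favoured by the choice. With the clock score 31 lost their call, among them Nr1d2, which is part of that score.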
